A study of Mus musculus with 12 samples.

Results

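The inflammasome genes examined here are 8 mouse genes of sensing and execution: the sensors Nlrp3, Mefv, Nlrc4 and Nlrp1b, the adaptor Pycard, the caspases Casp1 and Casp4, and the pore former Gsdmd. They were taken by name, with earlier results of these data known, and all 8 were found among the 55401 genes of the deposited tables. An inflammasome is a cytosolic complex in which a sensor recruits the adaptor ASC, encoded by Pycard, and activates caspase-1, which matures interleukin-1β and interleukin-18 and cleaves gasdermin D. Caspase-11, the product of mouse Casp4, is activated by cytosolic lipopolysaccharide and cleaves gasdermin D directly. In macrophages and monocytes, the amount of some of these transcripts is set by a priming signal that acts through NF-κB, and the complex itself assembles later, at the protein level.

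The cells were CD45+, CD11b+ and Ly6G- myeloid cells, sorted by flow cytometry from the hind paws of adult mice 4 h after an injection into the paw. Carrageenan, a seaweed polysaccharide that provokes acute inflammation and pain, was given at 1%, and sterile saline was the control. All mice carried the floxed allele of Fabp5, a lipid chaperone: those labelled Flox had no Cre, and those labelled LysMCre (FABP5Flox/LysM-Cre) expressed Cre from the lysozyme M locus, which is active in monocytes, macrophages and neutrophils. The 4 groups, Flox saline, Flox carrageenan, LysMCre saline and LysMCre carrageenan, held 3 libraries each. A library was made from the pooled cells of 3 or 4 mice and is named here by its mouse numbers. A Cre-only group is not part of the design, so the effect of Cre and that of Fabp5 deletion cannot be told apart, and p-values measure only the spread between these pools.

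The libraries were 3' mRNA libraries and held 111925 to 2987015 reads assigned to genes. By geometric mean, LysMCre libraries were 4.99 times as deep as Flox libraries, so depth and genotype cannot be told apart. The shallowest was the Flox saline pool 1-3. Fabp5 itself, whose 3' tag need not lie in the deleted part, gave 253 reads in all, with at least 1 in every library. Its level was 21.1 ± 14.9 in Flox saline, 59.1 ± 34.6 in Flox carrageenan, 7.15 ± 3.69 in LysMCre saline and 13.6 ± 8.69 in LysMCre carrageenan (normalised reads, mean ± SD, n = 3 pools). The genotypes overlapped in saline but not in carrageenan, where 15.1% of genes tested did not overlap. In the limma fits described below, Fabp5 was not called between genotypes. Its log2 difference was -1.20 in saline (limma adjusted p = 0.683), -2.06 in carrageenan (0.497) and -1.63 averaged over both treatments (0.210). The myeloid genes Ptprc (CD45), Itgam (CD11b), Csf1r and Lyz2 were read in all 12 libraries, whereas Ly6g gave 4 reads in total. Levels below are reads on a scale common to all 12 libraries, in normalised reads, which differs from the deposited scale of a treatment by a factor of 0.959 to 1.05 per library. A gene was called changed at an adjusted p under 0.05 in a limma fit of log2(value + 1) over all genes tested, with Benjamini-Hochberg adjustment, and folds are on that scale, which understates the change of low genes.

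Carrageenan raised the sensor transcripts Mefv and Nlrp3 and no other gene of the 8 at this threshold. Mefv was higher in carrageenan by a log2 fold change of 1.23 ± 0.22 (SE) and Nlrp3 by 0.86 ± 0.19, averaged over both genotypes. The LysMCre libraries held less Mefv than the Flox libraries of the same treatment, with no overlap in either treatment, a difference that limma did not call on all libraries without sample weights at a pseudocount of 1 and that some alternatives called. The 2 remaining sensors, Nlrc4 and Nlrp1b, were near the limit of detection, and Pycard, Casp1, Casp4 and Gsdmd were not called in any comparison by that limma fit, though sample weights or a left-out library brought calls for Casp1, Casp4 and Gsdmd.

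**Figure D1:**
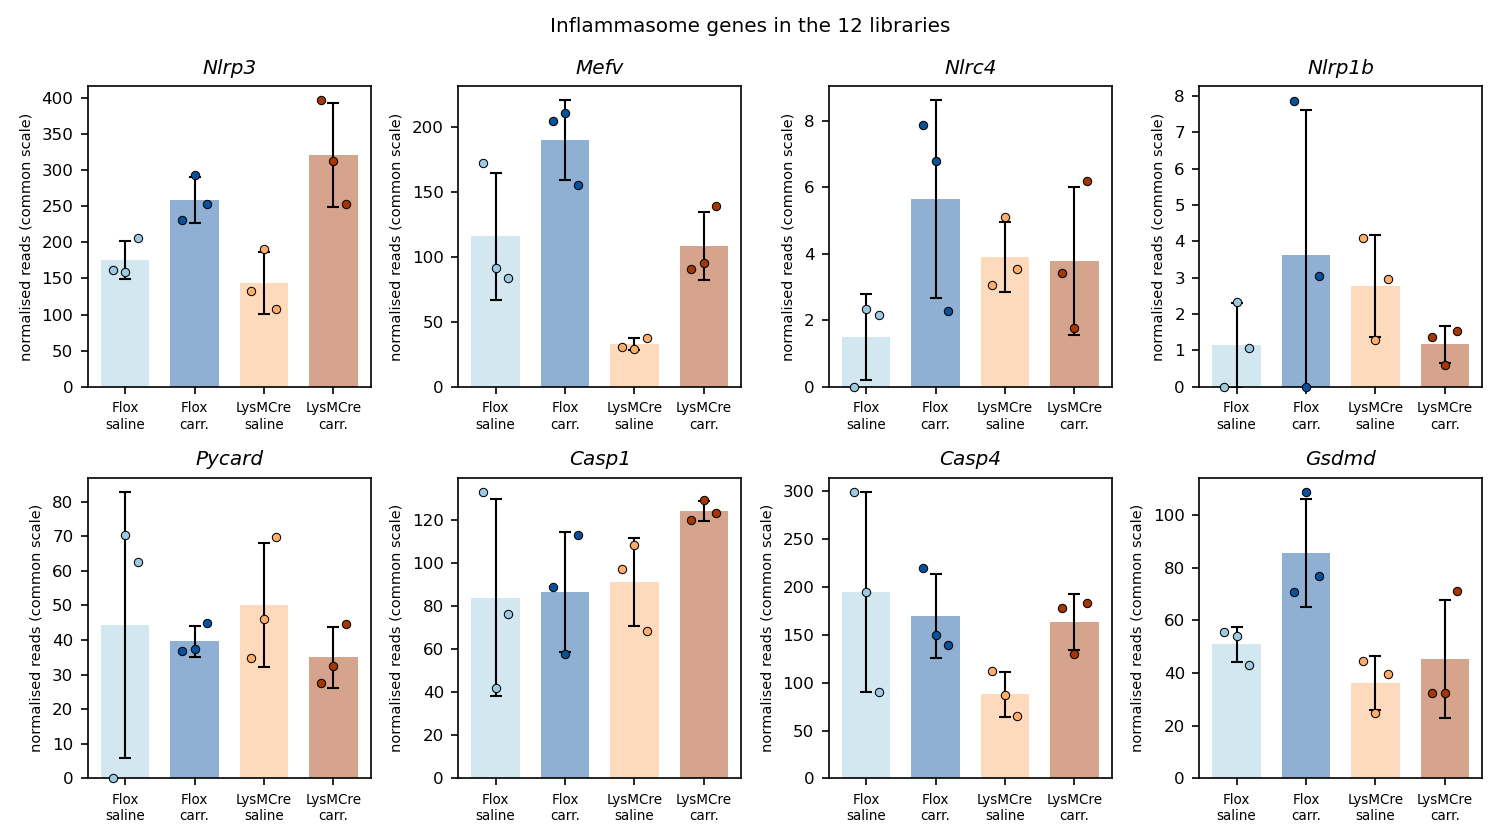
Level of each inflammasome gene in the 12 libraries, in normalised reads on the common scale (linear y axes that start at 0). Points are pools of mice, bars are group means and error bars SDs (n = 3). Nlrp3 and Mefv stand higher in carrageenan than in saline within each genotype by their means, and Mefv stands lower in LysMCre than in Flox.

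Nlrp3 (ENSMUSG00000032691, GRCm38 chr11:59541568-59566956, plus strand) encodes the sensor that responds to potassium efflux and many forms of cell damage, and its transcript is a known NF-κB target in macrophages. The stretch around its annotated start (RefSeq, GRCm38.p6, chr11:59541319-59541618, plus strand, 250 bases before to 50 after the start site) is shown with that of Mefv because these are the genes that rose, and with that of Casp4 as a gene of the same list that was not called by limma. Capitals mark matches to the κB consensus, searched on both strands, and overlapping matches are run together.
Nlrp3: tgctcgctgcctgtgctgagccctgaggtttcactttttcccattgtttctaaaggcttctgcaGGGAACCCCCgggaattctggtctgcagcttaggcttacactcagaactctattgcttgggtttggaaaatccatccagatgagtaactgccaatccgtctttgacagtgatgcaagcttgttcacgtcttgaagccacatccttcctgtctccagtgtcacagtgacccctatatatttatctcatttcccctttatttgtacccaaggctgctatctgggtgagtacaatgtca
Mefv: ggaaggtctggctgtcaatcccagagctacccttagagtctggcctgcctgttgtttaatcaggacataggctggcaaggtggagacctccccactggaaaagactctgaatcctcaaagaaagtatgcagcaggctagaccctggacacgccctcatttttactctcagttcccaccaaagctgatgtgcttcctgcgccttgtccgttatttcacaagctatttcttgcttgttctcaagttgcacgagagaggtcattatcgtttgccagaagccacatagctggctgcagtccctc
Casp4: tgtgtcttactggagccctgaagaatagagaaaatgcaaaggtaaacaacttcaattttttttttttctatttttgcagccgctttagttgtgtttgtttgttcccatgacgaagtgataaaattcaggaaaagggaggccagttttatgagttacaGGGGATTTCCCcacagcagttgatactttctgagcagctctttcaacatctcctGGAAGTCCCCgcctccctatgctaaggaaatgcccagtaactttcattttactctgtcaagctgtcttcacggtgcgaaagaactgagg
The Mefv stretch is chr16:3718075-3718374 on the minus strand and the Casp4 stretch chr9:5308599-5308898 on the plus strand. Nlrp3 held 1 κB match, at position -186 from the start site and readable on both strands, and Casp4 held overlapping matches at -93 and -92 and a further match at -39, while Mefv held none. A second annotated start of Nlrp3 held no κB match. Of 32851 mouse promoters of this length, 8.46% held the κB consensus. That share is per promoter, and Nlrp3, Casp4 and Nlrp1b each had more than 1. A promoter entry was matched for 7 of the 8 genes, Gsdmd being the one without, and among these 7 only Nlrp3 and Casp4 had a κB match. None of the 7 held the interferon-stimulated response element, searched as GAAA followed after any 2 bases by GAAA (3.44% of promoters), the GAS element TTCNNNGAA (8.30%) or the AP-1 site TGANTCA (7.81%), again on both strands. The PU.1 core GAGGAA (28.3% of promoters) occurred in the stretches of Pycard, Casp1 and Nlrp1b and at that second annotated start of Nlrp3. These are matches of letters within a short window, and no binding was measured.

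Nlrp3 was read 29 to 1159 times per library, fewest in the Flox saline pool 1-3. Its level was 161, 159 and 206 in the Flox saline pools and 231, 292 and 252 in the Flox carrageenan pools. In LysMCre it was 132, 191 and 108 in saline and 396, 313 and 253 in carrageenan. Every carrageenan library was above every saline library, in either genotype and across them. Of all genes tested, 23.0% in Flox and 29.6% in LysMCre had treatment groups that did not overlap. The group means were 175 ± 26.5 in Flox saline, 258 ± 31.4 in Flox carrageenan, 144 ± 42.9 in LysMCre saline and 321 ± 71.9 in LysMCre carrageenan (SD, n = 3).

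Mefv (ENSMUSG00000022534, GRCm38 chr16:3707218-3718097, minus strand) encodes pyrin, the sensor of inactivated RhoA, which in humans is mutated in familial Mediterranean fever. It was read 31 to 322 times per library, fewest in the Flox saline pool 1-3. Its level was 172, 91.5 and 84.1 in Flox saline and 204, 211 and 155 in Flox carrageenan. In LysMCre it was 31.0, 29.3 and 37.9 in saline and 91.0, 95.4 and 139 in carrageenan. The LysMCre saline pools were the 3 lowest of all 12 libraries, and 2 of the 3 LysMCre carrageenan pools lay near the level of the 2 deeper Flox saline pools. The Flox groups overlapped only through the saline pool 1-3, whose 31 reads gave a 95% Poisson interval of 117 to 244, counting error only.

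Carrageenan against saline asks how acute inflammation of the paw altered these transcripts in the sorted myeloid cells. In LysMCre, Mefv rose by a log2 fold change of 1.68 ± 0.31 (SE, limma adjusted p = 0.0090) and Nlrp3 by 1.17 ± 0.26 (limma adjusted p = 0.0273), higher in 3 of 3 carrageenan pools. These were 2 of the 7 genes of the list that could be tested, where 2.65% of 10240 genes were called in either direction and 2.10% as higher in carrageenan. Groups did not overlap for 29.6% of the genes tested. The LysMCre pools of the same number tended to deviate together, though the carrageenan pool 1-4 did so more with the saline pool 5-8. By pool number, Mefv was 2.94, 3.26 and 3.67 times as high in carrageenan as in saline and Nlrp3 3.00, 1.64 and 2.35 times. The Mefv call was lost when the LysMCre saline pool 1-4 was left out (limma adjusted p = 0.0528). The Nlrp3 call was lost without the LysMCre saline pool 1-4 (limma adjusted p = 0.133), the LysMCre saline pool 9-12 (0.143), the LysMCre carrageenan pool 1-4 (0.108) or the LysMCre carrageenan pool 5-8 (0.102), with log2 fold changes of 0.98 to 1.39 over all 12 omissions.

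In Flox, none of the 7 tested genes was called, where 7.17% of all genes tested were. Nlrp3 was higher in all 3 carrageenan pools than in any saline pool, by a log2 value of 0.56 ± 0.26 (limma adjusted p = 0.218). Groups did not overlap for 23.0% of the genes tested. The Mefv difference was 0.77 ± 0.31 (limma adjusted p = 0.147), and without the Flox saline pool 1-3 it was 1.09 with an adjusted p of 0.0251, where 7.52% of genes were called. By unadjusted limma p under 0.05, 2 genes of the list passed in Flox, as did 2350 of all 10240 genes tested. By adjusted p, edgeR and DESeq2 also called 0 of the list there. The responses of the genotypes were compared directly: the difference, LysMCre minus Flox, was 0.91 ± 0.44 for Mefv and 0.61 ± 0.37 for Nlrp3, both with a limma adjusted p of 0.966. Over all genes, 0% were called for this difference by limma, 246 had an unadjusted p under 0.05, and edgeR and DESeq2 called 0 as well.

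Averaged over both genotypes, Mefv rose by 1.23 ± 0.22 (limma adjusted p = 0.0018) and Nlrp3 by 0.86 ± 0.19 (limma adjusted p = 0.0065), which is 2.34 and 1.82 times on the log2(value + 1) scale. In this comparison 11.6% of genes were called, 6.77% as higher in carrageenan, and the 2 calls held in each of the 12 fits that left out 1 library. edgeR on the reads gave 1.22 for Mefv (adjusted p = 0.0004) and 0.82 for Nlrp3 (adjusted p = 0.0073), and called 16.6% of its genes. The limma estimates of all 7 tested genes were above 0, as were those of 51.2% of all genes tested, with medians of 0.49 and 0.02. That of Pycard was below 0 by edgeR (-0.48) and by limma without the Flox saline pool 1-3 (-0.61).

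**Figure D2:**
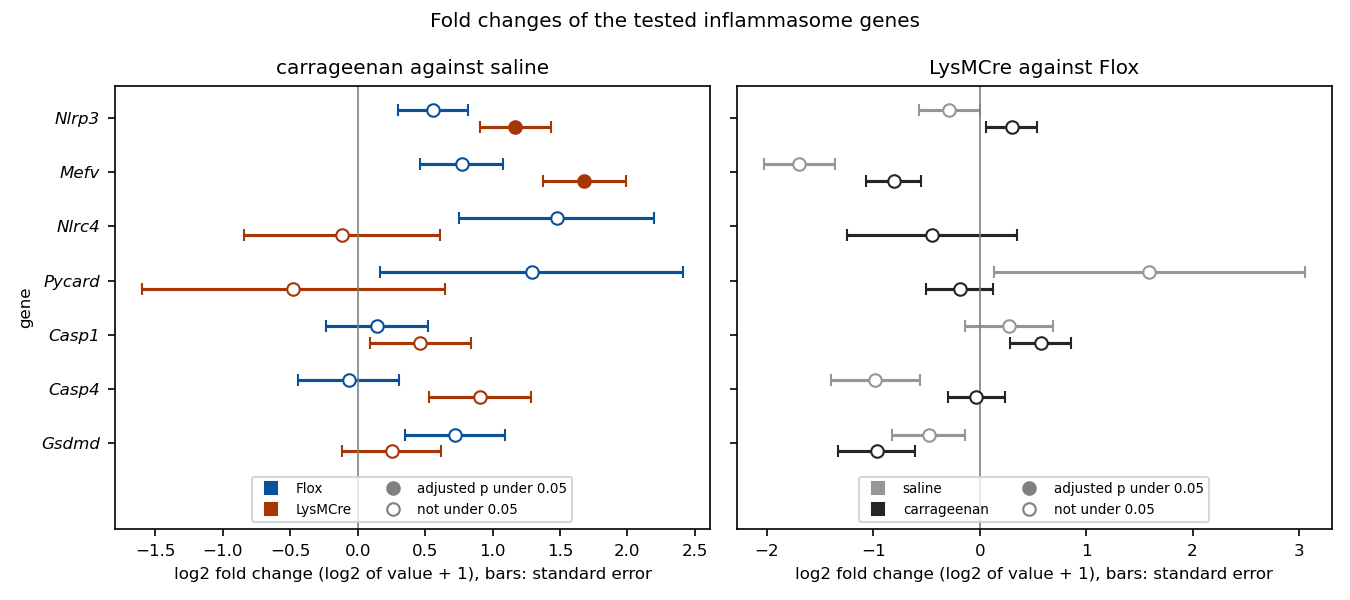
Log2 fold changes of the 7 tested genes on the log2(value + 1) scale, for carrageenan against saline in each genotype (left) and for LysMCre against Flox in each treatment (right). Bars are standard errors of the limma fits, and filled points have an adjusted p under 0.05. Only Mefv and Nlrp3 in LysMCre are filled.

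Markers of several cell types moved with the treatment. Summed over 15 neutrophil markers, the level was 35.2 to 88.4 in Flox saline, 452 to 779 in Flox carrageenan, 20.4 to 40.8 in LysMCre saline and 151 to 775 in LysMCre carrageenan. The sum over 10 inflammatory monocyte markers was 1013 to 1887, 6055 to 8100 (both Flox), 848 to 1483 and 2535 to 8906 (both LysMCre), saline first. The sum over 16 resident macrophage markers went the other way, with 10488 to 14476 and 3404 to 4374 in Flox and 14365 to 17753 and 4462 to 8100 in LysMCre. Averaged over both genotypes, 6 of the 8 tested neutrophil markers and 7 of 10 monocyte markers rose with carrageenan, and 16 of 16 resident macrophage markers fell. The sum over 8 fibroblast markers, a cell type outside a CD45+ gate, was also higher with carrageenan, at 49.9 to 585 and 707 to 1230 in Flox and 263 to 664 and 699.9 to 1051 in LysMCre. The granule genes Camp and Ngp, which define maturing neutrophils, had 0 reads in every library. The part of these shifts in the rise of Mefv and Nlrp3 was not tested, and in pooled cells fewer cells of a type and less RNA per cell cannot be told apart.

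Across the 12 libraries, the correlation of Mefv (log2 scale) with the summed markers was 0.80 for neutrophils, 0.71 for monocytes and -0.82 for resident macrophages (Pearson's r, a description over libraries that share groups and depth). For Nlrp3 the values were 0.67, 0.74 and -0.65. The LysMCre carrageenan pool 9-12 stood apart from the other LysMCre carrageenan pools: its neutrophil sum was 775, against 151 and 216, and its resident macrophage sum was 4462, against 8100 and 7364. It had the highest Mefv of the LysMCre group, at 139, and the lowest Nlrp3, at 253. Without this pool the LysMCre response of Mefv and that of Nlrp3 both stayed past the threshold.

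**Figure D3:**
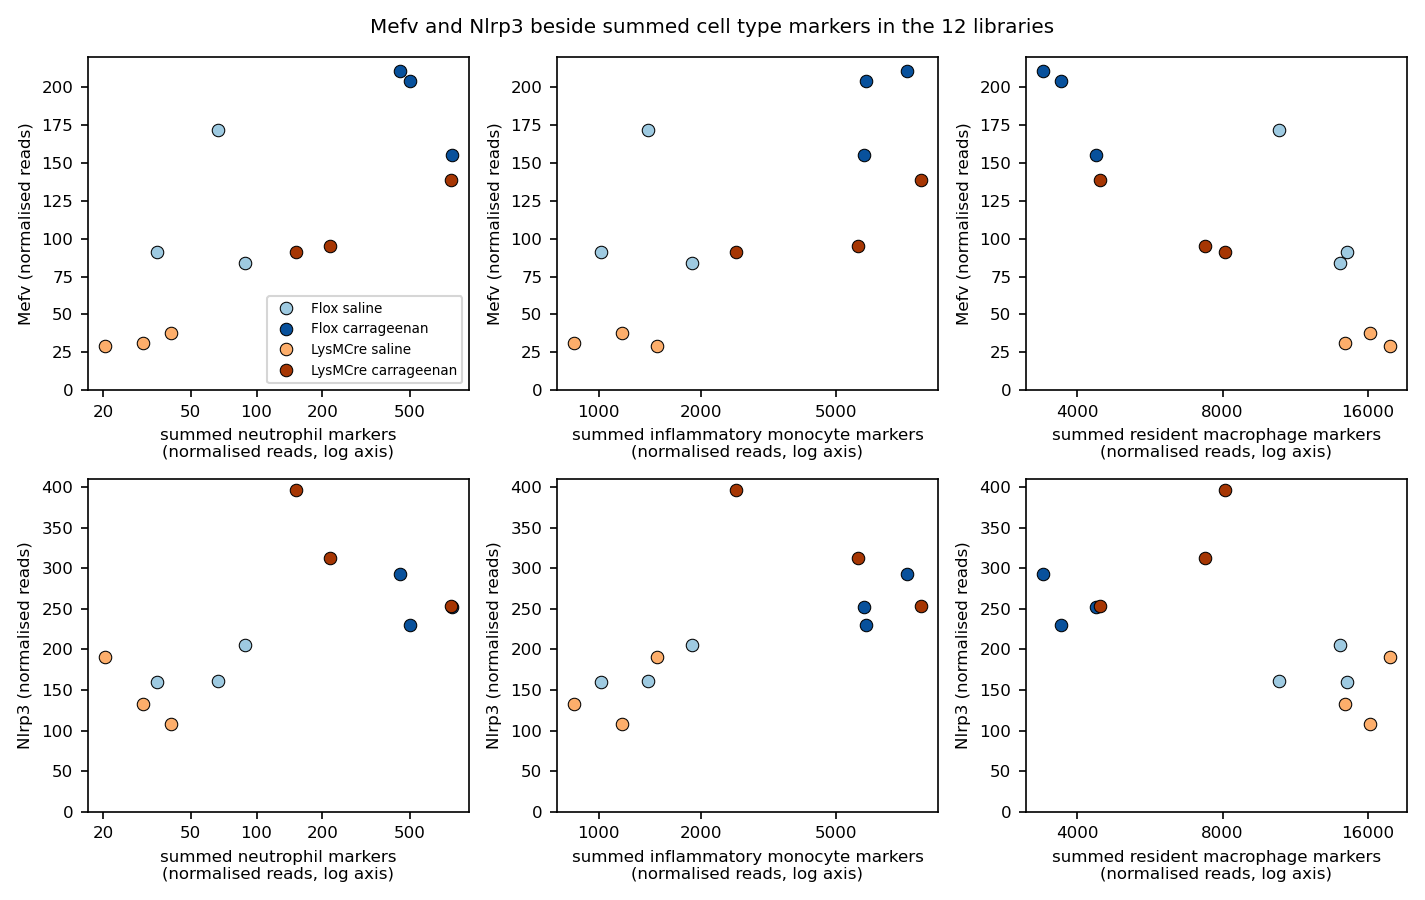
Level of Mefv (top) and Nlrp3 (bottom) against the summed levels of neutrophil, inflammatory monocyte and resident macrophage markers, each point 1 library (normalised reads, log x axes, linear y axes). At a given treatment, the LysMCre libraries lie below the Flox libraries for Mefv but not for Nlrp3.

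LysMCre against Flox compares floxed Fabp5 mice with and without the myeloid Cre. In saline, Mefv was 34.3 ± 4.8 in LysMCre and 118 ± 44.9 in Flox on the deposited scale (SD, n = 3), and in carrageenan 105 ± 25.2 and 183 ± 29.9. The log2 differences were -1.70 ± 0.33 in saline and -0.81 ± 0.26 in carrageenan, with all 3 LysMCre pools below all 3 Flox pools each time. Neither passed in limma without sample weights, at adjusted p = 0.683 and 0.497. In these comparisons limma called 0% of 9371 genes in saline and 0% of 9151 in carrageenan, while 508 and 897 genes had an unadjusted p under 0.05.

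Groups that did not overlap were common: 15.6% of tested genes in saline and 15.1% in carrageenan. Mefv belonged to the 68 genes, 0.785% of 8657, that were lower in every LysMCre than in any Flox library of the same treatment in both treatments. DESeq2 on the reads placed the saline difference of Mefv past the threshold, at -1.72 (adjusted p = 0.0060, 0.222% of genes called). The authors' deposited table gives -1.49 with an adjusted p of 0.00608 in saline, and -0.73 with 0.321 in carrageenan. In saline its unadjusted p for Mefv, 2.6e-06, was close to that of DESeq2, 2.5e-06, on the same libraries. The deposited value is therefore not separate support. edgeR gave -1.76 with an adjusted p of 0.104 in saline and -0.83 with 0.464 in carrageenan. limma with sample weights gave -1.45 (adjusted p = 0.0275, 0.267% of genes called) in saline and -0.86 (adjusted p = 0.0207, 10.7% called) in carrageenan.

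A comparison added after the values were seen averaged the genotype difference over both treatments. Mefv was lower in LysMCre by a log2 value of -1.25 ± 0.21 (limma adjusted p = 0.0636), or 0.420 of the Flox level, against a median over all genes of 0.23 (0.25 in saline and 0.09 in carrageenan). Limma called 1 of 10243 genes there (0.00976%), which was Lyz1, named after its values were seen. edgeR called 0.539% of 8900 genes, and Mefv was among them, at -1.27 with an adjusted p of 0.0113. In limma Mefv passed when the Flox saline pool 8-10 was left out (adjusted p = 0.0390, 0.108% of genes called) and when the LysMCre carrageenan pool 9-12 was left out (adjusted p = 0.0111, 2.27% called). It also passed in limma with a pseudocount of 5 (adjusted p = 0.0366, 0.0781% called) and with sample weights (adjusted p = 0.0007, 11.2% called). Neutrophil and monocyte markers had median log2 differences of -0.59 and -0.56 and resident macrophage markers of 0.85 in the same comparison, none called. In saline, the sum of 8 dendritic cell markers was 163 to 175 in LysMCre and 269.6 to 294 in Flox, and that of 6 keratinocyte markers 737 to 1534 and 255 to 624. The part of all these in the Mefv difference was not tested. Nlrp3 did not follow Mefv: its averaged difference was 0.01 ± 0.19 (limma adjusted p = 0.988), -0.29 ± 0.29 in saline and 0.30 ± 0.24 in carrageenan, with overlapping groups.

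Nlrc4, the sensor that binds flagellin-loaded NAIP proteins (GRCm38 chr17:74425438-74459142, minus strand), and Nlrp1b, the sensor cleaved by anthrax lethal factor (chr11:71153102-71230733, minus strand), were close to absent from the libraries. Nlrc4 gave 66 reads in all, with 0, 1 and 2 in Flox saline, 3, 2 and 3 in Flox carrageenan, 9, 20 and 6 in LysMCre saline and 10, 6 and 4 in LysMCre carrageenan. Nlrp1b gave 38 reads, with 0, 1 and 1, then 3, 0 and 4, then 12, 5 and 5, and then 4, 2 and 1 in the same order. The larger numbers stood in the deeper libraries. On the normalised scale Nlrc4 reached at most 7.86 and Nlrp1b at most 7.86, both in the Flox carrageenan pool 1-3 from 3 reads, and 3 reads in the shallowest library are worth 16.6. Nlrc4 was not called where it was tested, which with so few reads does not show that it was unchanged. It had a log2 value of 1.47 ± 0.73 in Flox (limma adjusted p = 0.238) and -0.12 ± 0.73 in LysMCre (limma adjusted p = 0.997). Nlrp1b passed the filter in no comparison, and Nlrc4 did not pass it in the saline comparison of genotypes. Of the last 500 transcript bases of Nlrc4, 11.8% of the 50-base words also occur in other genes, so part of its few reads is uncertain, and the gene overlaps a pseudogene.

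Pycard, whose product ASC links sensor and caspase-1 (GRCm38 chr7:127989708-127993867, minus strand), had 0, 70.3 and 62.6 in Flox saline and 36.7, 37.4 and 44.8 in Flox carrageenan. In LysMCre it was 34.7, 46.1 and 69.8 in saline and 27.7, 32.6 and 44.8 in carrageenan. The 0 was the shallowest library, the Flox saline pool 1-3, where 3 reads would have been 16.6. The Flox response, 1.29 ± 1.12 (limma adjusted p = 0.514), turned to -0.73 without that library, and the genotype difference in saline turned from 1.59 ± 1.46 to -0.45. The averaged response likewise turned from 0.41 ± 0.79 to -0.61, the averaged genotype difference from 0.70 ± 0.80 to -0.32, and the difference of the responses from -1.77 ± 1.59 to 0.26. No direction is therefore given for Pycard. In LysMCre its log2 difference was -0.48 ± 1.12 (limma adjusted p = 0.997), lower in carrageenan in each of the 3 same-numbered pools, at 0.798, 0.707 and 0.641 of the saline level, with overlapping groups. An uncharacterised gene, Gm45205, overlaps Pycard on the other strand, and whether counting used strand is not given in the sources used here.

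Casp1, the protease of the canonical pathway (GRCm38 chr9:5298517-5307265, plus strand), lies next to Casp4 (chr9:5308828-5336783, plus strand). Casp1 was 133, 42.2 and 76.6 in Flox saline and 89.1, 57.8 and 113 in Flox carrageenan, a spread of over 3 times within the saline group. In LysMCre it was 97.3, 108 and 68.6 in saline and 120.0, 129 and 124 in carrageenan, where the pools agreed closely. Within LysMCre every carrageenan pool was above every saline pool, by a log2 value of 0.46 ± 0.38 (limma adjusted p = 0.871), and in carrageenan every LysMCre pool was above every Flox pool, by 0.57 ± 0.29 (limma adjusted p = 0.510). Groups did not overlap for 29.6% and 15.1% of the genes tested in these comparisons, in turn. The Flox response was 0.14 ± 0.38 (limma adjusted p = 0.850). Averaged over both genotypes it was 0.30 ± 0.27 (limma adjusted p = 0.530), and with sample weights 0.57 with an adjusted p of 0.0413, where 20.2% of genes were called.

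Casp4 was 299.7, 195 and 90.6 in Flox saline and 220.1, 149.6 and 139.8 in Flox carrageenan. In LysMCre it was 112, 86.6 and 65.1 in saline and 178, 130.1 and 184 in carrageenan. The LysMCre groups did not overlap and the Flox groups did. The LysMCre response was 0.91 ± 0.38 (limma adjusted p = 0.337), and the Flox response -0.07 ± 0.38 (limma adjusted p = 0.933). edgeR with same-numbered pools as a block, chosen after seeing the data, gave 0.86 in LysMCre with an adjusted p of 0.0337, where 12.0% of genes were called, and without the block 0.146. limma with sample weights, which count deviating libraries less, gave 0.65 with an adjusted p of 0.0227, where 24.0% of genes were called. The difference between those responses, 0.97 ± 0.53, had a limma adjusted p of 0.966. In saline the LysMCre level was lower by -0.98 ± 0.42 (limma adjusted p = 0.683), with overlapping groups, and in carrageenan the difference was -0.03 ± 0.27. Casp1 and Casp4 were thus both higher in every LysMCre carrageenan pool than in any LysMCre saline pool without being called by limma without sample weights, where 29.6% of all genes tested had groups that did not overlap.

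Gsdmd, which encodes the pore former cleaved by both caspases (GRCm38 chr15:75862327-75867408, plus strand), was 55.5, 53.9 and 43.1 in Flox saline and 70.7, 109 and 76.8 in Flox carrageenan. In LysMCre it was 44.6, 24.7 and 39.6 in saline and 32.5, 32.3 and 71.0 in carrageenan. The Flox carrageenan pools were all above the Flox saline pools, by 0.72 ± 0.37 (limma adjusted p = 0.259), where 23.0% of genes tested had groups that did not overlap. In LysMCre the difference was 0.25 ± 0.37 (limma adjusted p = 0.996), and without the carrageenan pool 9-12, which held the 71.0, it turned to -0.12. In carrageenan, LysMCre was lower than Flox by a log2 value of -0.97 ± 0.36 (limma adjusted p = 0.497), with 68.4 as its highest pool against 68.5 as the lowest Flox pool on the deposited scale. On the common scale these pools crossed, at 71.0 and 70.7. Without the LysMCre carrageenan pool 9-12 that difference was -1.34 with a limma adjusted p of 0.0372, and that of Mefv -0.998 with 0.0417, where 4.71% of genes were called. With sample weights the Gsdmd difference was -1.22 in carrageenan (limma adjusted p = 0.0117) and -0.78 averaged over both treatments (limma adjusted p = 0.0239). The authors' deposited table gives -0.78 for Gsdmd in carrageenan, with an adjusted p of 0.408. Across the 12 libraries Gsdmd correlated with Mefv at 0.75 and with the summed resident macrophage markers at -0.75 (Pearson's r, a description).

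The make-up of the inflammasome reads can be read within a library, without scaling between libraries. Mefv took 14.8% to 20.9% of the 8 genes' reads in Flox saline and 19.7% to 24.4% in Flox carrageenan. It took 5.95% to 9.58% in LysMCre saline and 10.7% to 16.9% in LysMCre carrageenan. So the Mefv share was lower in every LysMCre pool than in any Flox pool of its treatment, and higher with carrageenan in every LysMCre pool. These shares rest on the same reads as the Mefv levels. In saline the Casp1 share went the other way, at 17.4% to 22.0% in LysMCre and 6.84% to 16.2% in Flox. The Nlrp3 share was 19.6% to 36.4% and 26.6% to 33.9% in Flox and 27.2% to 38.8% and 30.8% to 46.6% in LysMCre, saline first, with overlap throughout. The Pycard share in LysMCre was 7.56% to 17.7% in saline and 3.26% to 5.44% in carrageenan, without overlap. Shares within a library depend on each other, so larger shares of Nlrp3 or Mefv leave less for Pycard. The Pycard levels of these groups overlapped. Together the 8 genes gave 8.24 to 13.2 of every 10000 reads in Flox saline and 10.4 to 11.8 in Flox carrageenan, and 5.83 to 6.99 in LysMCre saline and 9.44 to 10.9 in LysMCre carrageenan.

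**Figure D4:**
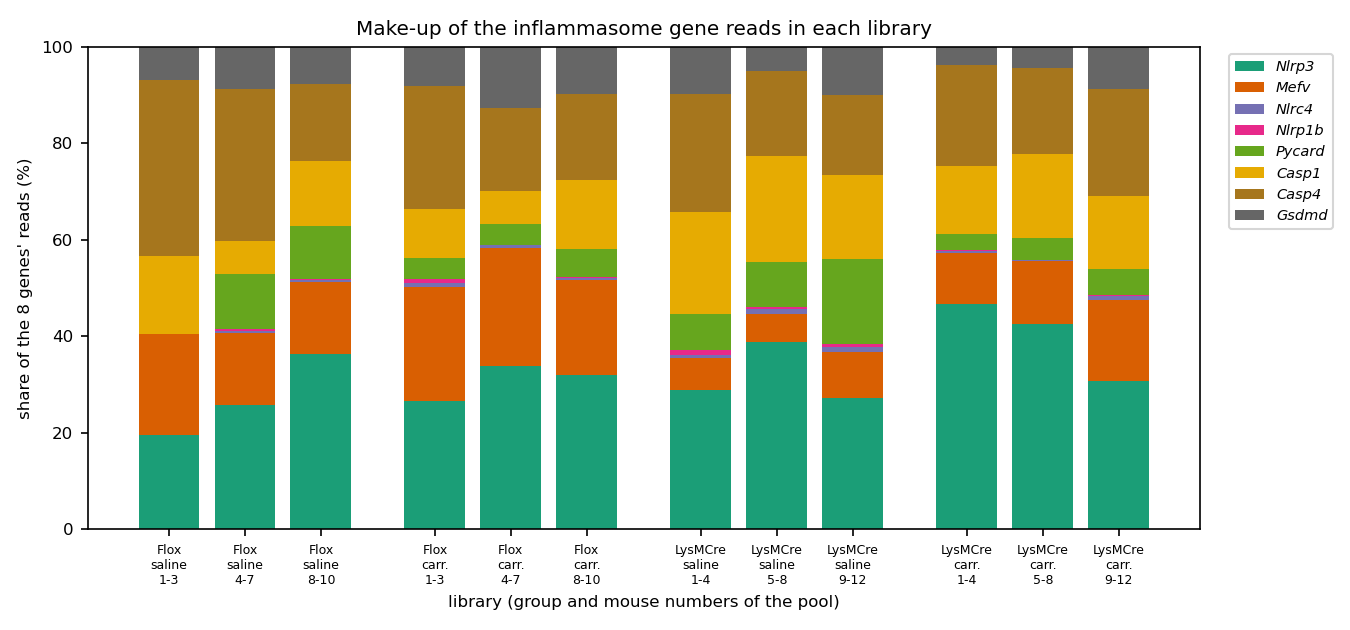
Share of each gene in the reads of the 8 inflammasome genes, by library, in percent. Each bar is 1 pool of mice, grouped by genotype and treatment. The Mefv share is smallest in the 3 LysMCre saline pools, at 5.95% to 9.58%, and Pycard is missing from the shallowest library.

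For each gene with a mean of at least 20, the 3 genes most like it over the 12 libraries were sought by Pearson's r of log2 values, among 10240 genes, as a description. For Mefv these were Cd244a (0.95), Traf1 (0.95), an adaptor of tumour necrosis factor receptors, and Nfkb2 (0.94), the NF-κB subunit p100/p52. For Nlrp3 they were Etv3 (0.94), Bcl2l11 (0.93), which encodes the pro-apoptotic protein BIM, and Hmga1 (0.92). Casp1 was most like Wsb1 (0.94), Abhd18 (0.92) and Snap29 (0.90), and Casp4 most like Dock10 (0.88), Appbp2 (0.88) and Ppp1r12a (0.86). Gsdmd was most like Hdlbp (0.95), Tgfb1 (0.94) and Cyp4f16 (0.93). Pycard was most like Rgs19 (0.99), Cuedc2 (0.98) and Gtf3c6 (0.98). These Pycard values include its 0 in the shallowest library, which weighs heavily on a log2 scale, and were not computed without that library. Among the 8 genes themselves, Mefv and Casp4 correlated at 0.74, Mefv and Nlrp3 at 0.54, and Nlrp3 and Gsdmd at 0.12.

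Genes around the inflammasome were described in 4 lists. Of 20 licensing and upstream factors tested, 10 rose and 1 fell with carrageenan averaged over both genotypes, with a median of 1.01, where 6.77% of all genes rose and 11.6% were called. The guanylate-binding proteins, interferon-induced GTPases that expose bacterial lipopolysaccharide to caspase-11 and aid other sensors, include Gbp2, Gbp3 and Gbp5. Gbp5 rose by 4.57 ± 0.52 (limma adjusted p = 6.6e-05), from 5.44 ± 5.39 to 92.3 ± 23.5 in Flox and from 4.56 ± 2.42 to 135 ± 32.8 in LysMCre. Gbp2 rose by 4.12 ± 0.51, and Zbp1, a nucleic acid sensor upstream of NLRP3, by 4.23 ± 0.59. Myd88, the adaptor of Toll-like receptors, rose by 1.08 ± 0.18. The factor that fell was Txnip, a binding partner of thioredoxin and of NLRP3, at -0.79 ± 0.19 (limma adjusted p = 0.0137), named because it was the only one.

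In Flox alone 8 of these 20 factors rose, Gbp2 by 4.87, Zbp1 by 5.23, Gbp5 by 4.42 and Gbp3 by 3.57, and none fell, where 4.42% of all genes rose. In LysMCre alone 4 rose, where 2.10% of all genes did and fewer genes were called in all: Gbp5 by 4.71, Gbp2 by 3.38, Nfkb1, the NF-κB subunit p105/p50, by 1.34 and Myd88 by 1.08. The Gbp5 call held in all 12 omissions of a library in either genotype. The Flox call of Gbp3 was lost without the Flox carrageenan pool 4-7 (limma adjusted p = 0.0521). The LysMCre calls of Gbp2, Nfkb1 and Myd88 were lost in 5, 7 and 7 omissions, among them the LysMCre saline pool 1-4 (limma adjusted p = 0.0844, 0.222 and 0.155) and the LysMCre carrageenan pool 9-12 (0.111, 0.0693 and 0.0998). With same-numbered pools as a block, Myd88 in LysMCre had a limma adjusted p of 0.0704.

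Among the other sensors, 9 of 15 could be tested, and 3 rose averaged over both genotypes, against 6.77% of all genes, with a list median of 0.14. Nlrc5, known mainly as the activator of MHC class I genes, rose by 2.28 ± 0.36 (limma adjusted p = 0.0007), from 11.6 ± 0.41 to 70.3 ± 29.7 in Flox and from 10.4 ± 4.25 to 54.2 ± 36.0 in LysMCre. The peptidoglycan receptor Nod2 rose by 1.53 ± 0.30 (limma adjusted p = 0.0040). Its relative Nod1 rose by 0.86 ± 0.26 (limma adjusted p = 0.0418), a call lost in 9 of 12 omissions of a library, with adjusted p up to 0.125 without the LysMCre carrageenan pool 1-4 and 0.0687 with same-numbered pools as a block. Nlrc5 was also the only one of these called within a genotype, at 2.41 in Flox and 2.15 in LysMCre. The Flox call was lost without the Flox carrageenan pool 4-7 (limma adjusted p = 0.0565), and the LysMCre call in 7 omissions, up to 0.202 without the LysMCre carrageenan pool 9-12, and with the block (0.0626).

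Of 11 inhibitors tested, 4 rose averaged over both genotypes, against 6.77% of all genes, and none fell, with a median of 0.37. Il1rn, the interleukin-1 receptor antagonist, rose by 4.32 ± 0.31 (limma adjusted p = 1.6e-06), from 151 ± 113 to 3077 ± 514 in Flox and from 181 ± 71.0 to 2976 ± 936 in LysMCre. Trim30a, which in mouse restrains NLRP3, rose by 2.06 ± 0.26, and both were called within each genotype, in all 12 omissions of a library. Tnfaip3 (A20) had a log2 value of 0.76 ± 0.22 and Cflar (c-FLIP) of 0.61 ± 0.16, with limma adjusted p = 0.0342 and 0.0224. These calls were lost in 7 and 4 omissions, both of them without the LysMCre saline pool 1-4 (limma adjusted p = 0.105 and 0.0556). Tnfaip3 was called in LysMCre, at 1.37, but not without the LysMCre saline pool 1-4 (limma adjusted p = 0.167), the LysMCre saline pool 9-12 (0.123), the LysMCre carrageenan pool 1-4 (0.108) or the LysMCre carrageenan pool 5-8 (0.126).

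Of 12 substrates and executioners tested, 2 rose and 1 fell averaged over both genotypes, against 6.77% of all genes that rose and 11.6% called, with a median of -0.14. Il1b, the cytokine that caspase-1 matures, rose by 1.52 ± 0.23 (limma adjusted p = 0.0006), from 1077 ± 307 to 3035 ± 200 in Flox and from 693 ± 175 to 2058 ± 925 in LysMCre. It was called in each genotype, at 1.53 and 1.50 in turn, though not in Flox without the carrageenan pool 4-7 (limma adjusted p = 0.0508), nor in LysMCre without the saline pools 1-4 (0.144) or 5-8 (0.0777) or the carrageenan pools 5-8 (0.0811) or 9-12 (0.0998). Il1a, an alarmin released through gasdermin pores, had 1.24 ± 0.32 (limma adjusted p = 0.0206), lost in 4 omissions, up to 0.0556 without the LysMCre carrageenan pool 5-8. Il18r1, a subunit of the interleukin-18 receptor, had -1.73 ± 0.53 (limma adjusted p = 0.0496) from 5 to 36 reads per group, lost in 7 of the 9 omissions in which it was tested and with the block (0.0827). No gene of the 4 lists was called between genotypes or for the difference of the responses.

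**Figure D5:**
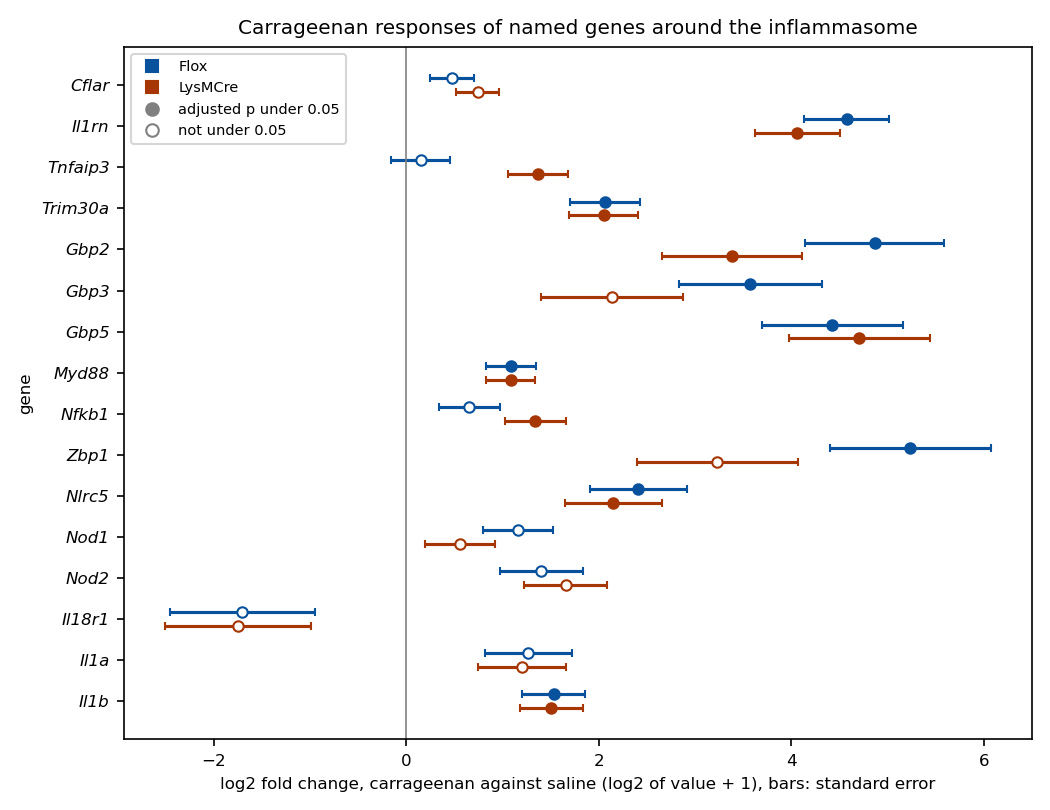
Log2 fold changes of the named genes around the inflammasome, carrageenan against saline, in Flox and in LysMCre (log2(value + 1) scale, bars are standard errors of the limma fit, filled points have an adjusted p under 0.05). Gbp2, Gbp5, Il1rn, Trim30a, Nlrc5, Il1b and Myd88 are filled in both genotypes.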

How the data were processed

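The libraries were 3' mRNA libraries with unique molecular identifiers (LUTHOR), per the labels' protocols. Per the submitters' processing notes, cutadapt, STAR and GRCm38 were used; no source used here names the counter. In the deposited tables the authors give a signal per gene: reads over a library's size factor, each treatment scaled on its own. The authors' other tables give, per the file headers, a log2 fold change, a score (that change over its standard error), a p-value and an adjusted p-value per gene. Dividing by the smallest step gave whole reads (100% of values whole within 0.001), and entries that are no gene (0.170% to 2.23% of reads) were left out. Positions are from GENCODE vM21.

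A common scale came from median ratios over 6501 genes read in all 12 libraries. limma 3.58.1 (R 4.3.3, trend) was run on log2(value + 1) for genes at 5 or more in 3 or more libraries: treatment and its difference between genotypes on 12 libraries, each genotype comparison on its 6 libraries on the deposited scale. Alternatives were other pseudocounts, filters and scale, edgeR 4.0.16, DESeq2 1.42.0, sample weights, a replicate block and each library left out. Only limma and edgeR at their main settings were run on simulated data, for the LysMCre response and the saline genotype comparison. The other alternatives were not. Same-numbered LysMCre pools tended to deviate together (correlations of deviations 0.247, 0.524 and 0.611), while Flox pools did not (0.0248, -0.0191 and 0.0861). The LysMCre carrageenan pool 1-4 correlated more with the saline pool 5-8 (0.337). The labels do not say whether same-numbered pools came from the same mice. The 8 genes, the lists, and the naming rule (all 8; the called genes of each list, or the 4 with the smallest p where more than 4 were called) were chosen with earlier results of these data known.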

Additional observations from a re-analysis of the deposited data

How the results depend on the processing

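The average response kept its 2 called genes, Mefv and Nlrp3, under every alternative, and sample weights added Casp1. The replicate block in limma left the LysMCre count at 2 (limma adjusted p = 0.0120 for Mefv and 0.0327 for Nlrp3). Of the named genes, that block changed only the calls given for Nlrc5, Myd88, Nod1 and Il18r1. Over all genes, LysMCre calls numbered 271 with limma, 714 with edgeR, 852 with DESeq2, 2453 with sample weights and 139 with no filter. Elsewhere counts moved as follows. In LysMCre 3 were called with sample weights and 3 by edgeR with the block, each with Casp4. There 1 was called with no filter, 1 with the other scale and 0 to 2 with 1 library left out. Over all genes, 1069 of 8900 were called in LysMCre by edgeR with the block, 235 of 10243 on the other scale and 84 to 521 with 1 left out. In Flox 0 to 1 were called with 1 library left out. Without both the shallowest library and the LysMCre carrageenan pool 9-12, an alternative chosen after seeing the data, 1 was called. Over all genes, 350 to 1078 were called in Flox with 1 left out and 952 of 9999 without both. Between genotypes in saline 1 was called by edgeR with no filter, by DESeq2 and with sample weights. Over all genes, these called 53 of 19563, 19 of 8564 and 25 of 9371 in turn. In carrageenan 2 were called with sample weights and 2 without both libraries, and 0 to 2 with 1 left out. Over all genes, these fits called 980 of 9151 and 420 of 8908, and 0 to 420 with 1 left out. For the averaged genotype difference 1 was called with pseudocount 5, by edgeR with or without filter and by DESeq2. With sample weights 2 were called, without both libraries 2, and with 1 left out 0 to 1. Over all genes, that difference had 8 calls of 10243 with pseudocount 5, 48 of 8900 by edgeR and 486 of 22055 by edgeR with no filter. DESeq2 called 202 of 10510, sample weights 1150 of 10243 and the fit without both libraries 769 of 10005. With 1 left out, 0 to 230 genes were called. The cause of these moves was not tested.

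Signs turned as follows, on the log2 scale. Pycard was, in the order averaged genotype difference, Flox response and averaged response, -0.10, -0.29 and -0.42 by DESeq2, -0.15, -0.37 and -0.48 by edgeR, -0.041, -0.37 and -0.49 by edgeR with no filter, -0.32, -0.38 and -0.44 with sample weights and -0.41, -0.73 and -0.70 without both libraries; edgeR with the replicate block gave -0.23 and -0.37 for the last 2. In saline the Pycard genotype difference was -0.064 by edgeR, -0.28 with sample weights and -0.45 without both, and the difference of responses 0.070 without both. With 1 library left out, Pycard ranged from -0.32 to 1.23, -0.73 to 2.34, -0.61 to 0.93, -0.45 to 2.65 (saline genotypes) and -2.82 to 0.26 (difference of responses). Casp4 in carrageenan between genotypes was 0.042 by edgeR with no filter, and its Flox response 0.25 with sample weights and 0.32 without both; leaving out 1 library gave -0.16 to 0.17 and -0.53 to 0.32. The Casp1 difference of responses was -0.18 with sample weights and -0.079 without both, and -0.083 to 0.73 with 1 left out; its Flox response ran from -0.27 to 0.55 and its saline genotype difference from -0.13 to 0.65. The Gsdmd LysMCre response was -0.18 and -0.12 under the same settings, and -0.12 to 0.44. The Nlrp3 averaged genotype difference was -0.012 on the other scale and -0.0076 with sample weights, and -0.11 to 0.10; Nlrc4 was -0.10 there without both, and -0.46 to 0.22 for its LysMCre response. Depth limits Nlrc4, Nlrp1b and, in the shallowest library, Pycard.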
